A study of Homo sapiens with 6 samples.

Results

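Integrins, laminins, collagens and fibronectin were compared between control HepG2 cells and HepG2 cells that overexpress a Flag-tagged open reading frame. The members were all rows of the count table whose Ensembl identifier maps to an alpha or beta integrin chain, a laminin chain, a collagen alpha chain or FN1, without integrin-binding proteins and pseudogenes. They numbered 83 of 20422 genes: 18 alpha integrins, 8 beta integrins, 12 laminins, 44 collagens and FN1. HepG2 is an established human line from a liver cancer. RNA-Seq was done on 3 libraries of the negative control group (NC) and 3 of the overexpression group (ORF_Flag). The sample labels describe a vector plasmid introduced into NC and an overexpression plasmid with a Flag-tag fusion introduced into ORF_Flag, whereas the study's methods describe stable lines made with lentiviral vectors and puromycin. The open reading frame is that of ASH1L-AS1, which encodes the microprotein APPLE. The level of the construct was not analysed here, and the labels were therefore not checked against it. No source says that replicates came from separate cultures, so p-values measure only the spread between these samples, which may be technical.

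Integrins are receptors in the cell membrane, each made of an alpha and a beta chain, and they bind matrix proteins outside the cell and the actin cytoskeleton inside it. Laminins are trimers of an alpha, a beta and a gamma chain that form the sheet of basement membranes together with collagen IV, whereas collagens are triple helices of alpha chains that form fibrils, networks or surface molecules. In the liver, hepatocytes secrete fibronectin into plasma, stellate cells make most of the fibrillar collagen, and liver cancer lines bind matrix largely through integrins of the beta1 group.

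The libraries held 20081203, 24907524 and 30088457 counts in NC replicates 1, 2 and 3, and 26866148, 17494668 and 27015836 counts in ORF_Flag replicates 1, 2 and 3. At these depths 3 counts, the limit that a count of 0 allows, correspond to between 0.0997 and 0.171 CPM (each gene's counts relative to the size of its library), and this limit covers counting error only. All levels below are CPM scaled with TMM factors, and levels of members are compared with one another after division by exon length in kb. Ranks, sums and leading genes given in CPM are not divided by length.

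Of the 83 members, 42 passed edgeR's default filter on low counts and were tested. The filter kept 13 of 18 alpha integrins, 5 of 8 beta integrins, 9 of 12 laminins, 14 of 44 collagens and FN1. None of the other 41 members exceeded 10 counts in any library, and 10 of them had 0 counts in all 6 libraries: the integrin chains ITGA4, ITGA8 and ITGB8, and the collagen chains COL6A5, COL9A1, COL11A1, COL15A1, COL19A1, COL23A1 and COL25A1. The main fibrillar collagens of connective tissue were at the floor as well. COL1A1, a chain of collagen I, had 0, 0 and 2 counts in NC and 1, 0 and 1 in ORF_Flag. COL1A2, its partner chain, had 0, 2 and 0 counts in NC and 0, 1 and 0 in ORF_Flag. COL3A1, the chain of collagen III, had 0, 1 and 0 counts in NC and 2, 0 and 3 in ORF_Flag. At this depth no difference could be detected in these genes.

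Per exon length, FN1 stood far above the rest, with a mean of 788 CPM per kb (range over the 6 libraries 756 to 821). FN1, which encodes fibronectin, was 3rd by CPM among all genes of the table and took between 1.32% and 1.43% of the counts of a library. ITGB1, the beta chain shared by most matrix-binding integrins, followed at 132 CPM per kb (124 to 137). LAMB1 was at 67.6 CPM per kb (66.2 to 70.3) and LAMC1 at 52.4 CPM per kb (50.9 to 53.9); these are the beta and gamma chains shared by most laminin trimers. The ranges of these 4 genes did not overlap with one another, so their order held in all 6 libraries. Below them, ITGA6 at 29.3, LAMB2 at 27.6, COL9A3 at 26.2, ITGAV at 23.5 and ITGB5 at 22.7 CPM per kb formed a run in which neighbours overlapped in range over the libraries; of these neighbours LAMB2 was above COL9A3 in all 6 libraries, and the order of the others changed between libraries. The next such run was COL27A1 at 18.6, LAMA5 at 18.4, COL18A1 at 16.6 and ITGA2 at 14.7 CPM per kb, with LAMA5 above COL18A1 in all 6 libraries. The lowest member tested was LAMA1 at 0.0234 CPM per kb. With the longest transcript of each gene as the length, the 10 highest members were the same 10, and COL9A3 moved from rank 7 to rank 5.

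**Figure D1:**
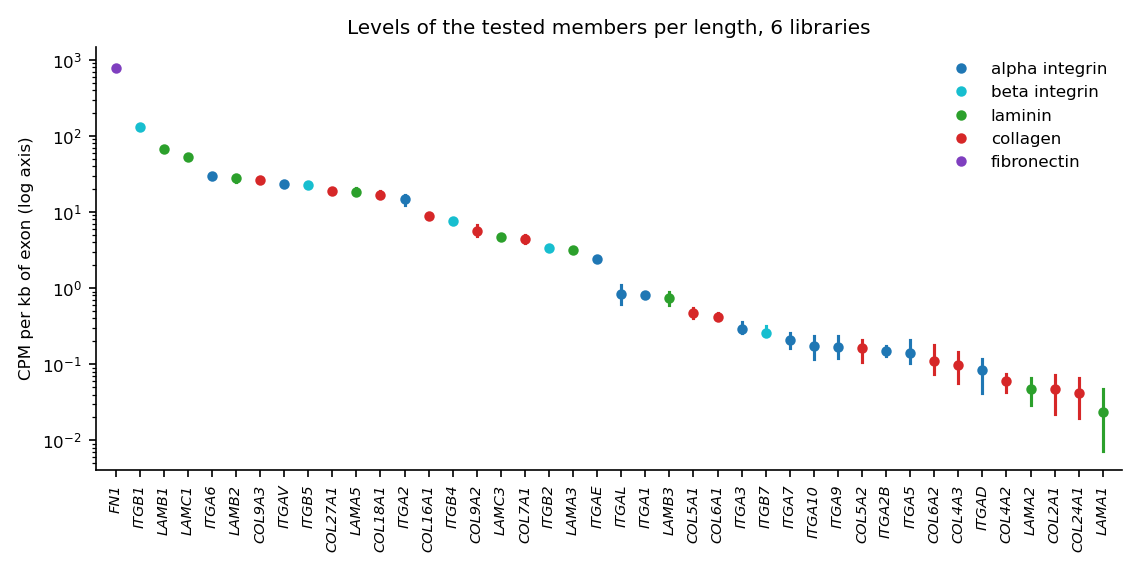
Mean level of each of the 42 tested members in TMM-normalized CPM per kb of exon on a log axis (points), with the lowest and highest of the 6 libraries (lines), coloured by family. FN1, ITGB1, LAMB1 and LAMC1 lead the order, and the ranges widen toward the right, where a member has few counts.

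Read as chains that must pair, 14 of 24 known integrin pairs and 10 of 15 laminin trimers had every chain past the filter. Several of these rest on a chain near the floor. The scarcest chain was at 0.0234 CPM per kb in trimers with LAMA1 and at 0.048 in those with LAMA2. Among the pairs it was at 0.085 in alphaDbeta2 and 0.14 in alpha5beta1, against 29.3 in alpha6beta1. Passing the filter therefore does not show that a complex is made. The alpha partner of ITGB1 with the highest level was ITGA6, a laminin receptor chain, followed by ITGAV, which binds fibronectin and vitronectin, and ITGA2, a collagen receptor chain. ITGAV and ITGB5, which form the vitronectin receptor alphaVbeta5, lay side by side at 23.5 and 22.7 CPM per kb. ITGB3, ITGB6 and ITGB8, the other specific partners of ITGAV, had at most 3 counts in a library. Of the 31-base stretches of ITGB3 and ITGB6, 56.4% and 19.6% also occur in transcripts of another gene. The low counts of ITGB3 and ITGB6 therefore depend on how shared reads were counted. Among laminin alpha chains LAMA5 was the highest at 18.4 CPM per kb, against 3.16 for LAMA3, and the trimers of LAMA5 with LAMB1 or LAMB2 and LAMC1 were those whose scarcest chain was most abundant. Collagen IX is built from 3 different chains, of which COL9A3 and COL9A2 (5.61 CPM per kb) were expressed and COL9A1 had no count. The chains of collagen IV had few counts: COL4A2 had between 17 and 35 per library, COL4A1, its neighbour and partner chain, between 1 and 6, COL4A3 between 13 and 30, and COL4A4, COL4A5 and COL4A6 at most 3.

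By edgeR's quasi-likelihood test, at a threshold of 0.05 on p-values adjusted by Benjamini-Hochberg over the 12386 genes tested, 6 of the 42 tested members (14.3%) differed between ORF_Flag and NC, against 4.45% of all genes tested. ITGA2 was the 1 member that rose (2.38% of the members, against 2.47% of all genes). The basement membrane laminin chain LAMB2 and the collagen chains COL18A1, COL7A1, COL9A2 and COL9A3 were the 5 that fell (11.9% of the members, against 1.98% of all genes). The differences were small: the largest fold among the 6 was 1.21, NC over ORF_Flag, for COL9A2. The groups did not overlap in 12 members (28.6%), 4 of them higher and 8 lower in ORF_Flag, against 22.4% of all genes. At a fold change above 1.2 with an unadjusted p below 0.05, 4 members were counted (9.52%, against 4.54% of all genes), namely COL9A2, LAMB3, LAMA1 and ITGA9; ITGA2, at a fold of 1.197, was not among them. The median log2 fold change of the members was -0.0071 and that of all genes tested -0.0012, with median absolute values of 0.12 and 0.07. The test favours genes with many reads. Among the 22 members with a mean of at least 10 CPM, 6 (27.3%) were called, against 5.76% of the 8687 genes at that level. These shares were 4.55% against 2.82% without NC replicate 2, and 4.55% against 2.12% without ORF_Flag replicate 3. Without NC replicate 3 they were 36.4% against 10.9%. With the trends on GC content and exon length removed they were 18.2% against 8.56%. As these are bulk samples, a change in RNA per cell and a change in the share of cells that express a gene cannot be told apart.

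**Figure D2:**
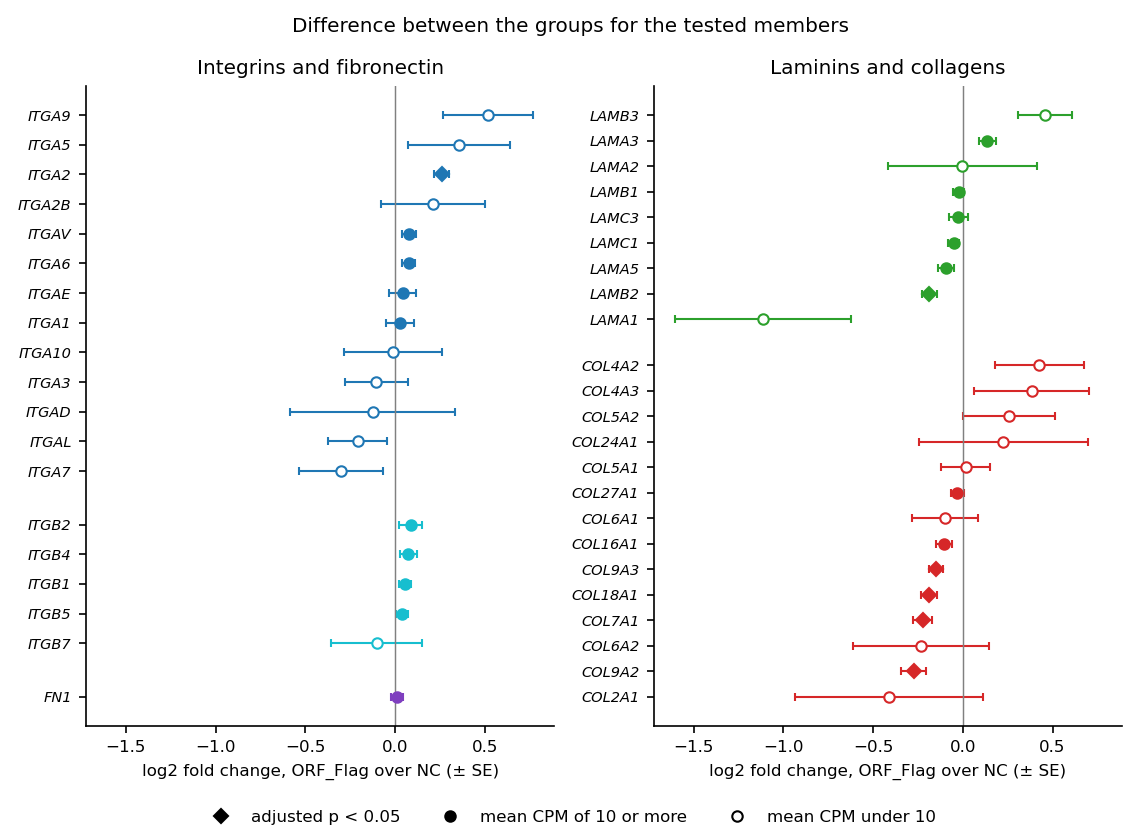
Log2 fold change of ORF_Flag over NC (points) with its standard error (bars, edgeR, n = 3 libraries a group) for the 42 tested members, by family. Diamonds mark an adjusted p below 0.05, filled points a mean of at least 10 CPM and open points a lower mean; the integrins with filled points lie right of 0 and the collagens with filled points left of it.

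Among members with a mean of at least 10 CPM, the receptors and the collagens had values of opposite sign. All 5 alpha integrins and all 4 beta integrins at that level had a positive log2 fold change (medians 0.08 and 0.07), and all 6 collagens had a negative one (median -0.17). Of the 6 laminins 5 were negative. Over all tested members, those with few counts included, both signs occurred in each family of chains: 8 of 13 alpha integrins (median 0.04), 4 of 5 beta integrins (0.06), 2 of 9 laminins (-0.02) and 5 of 14 collagens (-0.10) had a positive value. At 10 CPM or more the signs were the same under the other scalings (no TMM, DESeq2 size factors). ITGA1 turned negative without NC replicate 1, without ORF_Flag replicate 3 and with the GC and length trends removed. COL27A1 turned positive without NC replicate 2 and with those trends removed. LAMC3 turned positive without ORF_Flag replicate 3 and with those trends removed, which left 4 of the 6 laminins negative in either fit. With those trends removed the median of the 6 collagens was -0.09 and 1 of them was called by edgeR, against 4 on the counts as they are. Of the 8677 genes at that level in the same fit, 8.56% were called and 46.1% had a positive value. On the counts as they are, 5.76% of the 8687 genes at that level were called and 49.2% had a positive value.

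ITGA2 (ENSG00000164171.11, chromosome 5, 52989326 to 53094779, plus strand of GRCh38) encodes the alpha2 chain, which pairs with beta1 as a receptor for collagens and laminins. Its level was 99.0, 109.8 and 109.1 CPM in the NC libraries and 125.1, 124.8 and 131.2 CPM in the ORF_Flag libraries. Every ORF_Flag library lay above every NC library, and the gap between the groups was wider than the range within either. The NC mean was 106.0 ± 6.04 CPM and the ORF_Flag mean 127.0 ± 3.65 CPM (SD, n = 3 each). The log2 fold change was 0.26 (SE 0.04, adjusted p = 0.000423, edgeR's quasi-likelihood test). It was called at an adjusted p below 0.05 under each of the 14 alternative fits, with adjusted p-values between 3.2e-08 and 0.00935 in the respective test.

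LAMB2 (ENSG00000172037.14, chromosome 3, 49121114 to 49133118, minus strand) encodes the laminin beta2 chain. Its level was 206.6, 211.9 and 186.0 CPM in NC and 177.4, 184.0 and 169.7 CPM in ORF_Flag. NC replicate 3 was the lowest control and lay just above ORF_Flag replicate 2, so the groups were separate by a narrow margin. The log2 fold change was -0.19 (SE 0.04, adjusted p = 0.0119, edgeR's quasi-likelihood test). LAMB1, the alternative beta chain, is higher per length and did not pass the test, with 554.7 ± 16.7 CPM in NC and 546.0 ± 5.89 CPM in ORF_Flag (SD, n = 3).

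COL18A1 (ENSG00000182871.16, chromosome 21, 45405137 to 45513720, plus strand) encodes the chain of collagen XVIII, a basement membrane proteoglycan whose end piece is endostatin. Its level was 160.0, 153.3 and 138.8 CPM in NC and 132.4, 135.7 and 128.6 CPM in ORF_Flag. The lowest control was again NC replicate 3, and the groups did not overlap. The log2 fold change was -0.19 (SE 0.04, adjusted p = 0.0128, edgeR's quasi-likelihood test). COL7A1 (ENSG00000114270.18, chromosome 3, 48564073 to 48595267, minus strand), the chain of the anchoring fibrils under epithelia, was at 49.5, 55.4 and 51.1 CPM in NC and 43.5, 47.7 and 43.0 CPM in ORF_Flag. The highest ORF_Flag library lay below the lowest control, and the log2 fold change was -0.22 (SE 0.05, adjusted p = 0.0168, edgeR's quasi-likelihood test).

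COL9A2 and COL9A3 encode chains of collagen IX, which sits on the surface of fibrils and is known mainly from cartilage. COL9A2 (ENSG00000049089.15, chromosome 1, 40300487 to 40317813, minus strand) was at 24.5, 28.1 and 24.9 CPM in NC and 21.6, 22.6 and 20.2 CPM in ORF_Flag. COL9A3 (ENSG00000092758.18, chromosome 20, 62816244 to 62841159, plus strand) was at 135.2, 138.4 and 127.0 CPM in NC and 123.1, 121.3 and 116.0 CPM in ORF_Flag. In both genes NC replicate 2 was the highest and ORF_Flag replicate 3 the lowest library, and the groups did not overlap. The log2 fold change was -0.27 (SE 0.07, adjusted p = 0.0240) for COL9A2 and -0.15 (SE 0.04, adjusted p = 0.0278) for COL9A3 in edgeR's quasi-likelihood test.

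The calls of the 5 members that fell depended on single libraries, while their direction did not change in any of the 14 alternative fits. Without NC replicate 2, and likewise without ORF_Flag replicate 3, edgeR called 0 of them, although all 5 had an unadjusted p below 0.05 in both fits. On all libraries DESeq2 and limma-trend each called the same 5. Without ORF_Flag replicate 1 only LAMB2 was called, and without ORF_Flag replicate 2 COL9A3 was lost and 4 were called. Without NC replicate 3 all 5 were called and LAMA5 and COL16A1 joined them. Leaving out 1 library at a time put the log2 fold change of LAMB2 between -0.24 and -0.15, of COL18A1 between -0.25 and -0.14, of COL7A1 between -0.27 and -0.18, of COL9A2 between -0.31 and -0.21 and of COL9A3 between -0.19 and -0.12. The count over all genes moved with the same libraries, from 1.599% called without ORF_Flag replicate 3 to 8.48% without NC replicate 3.

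**Figure D3:**
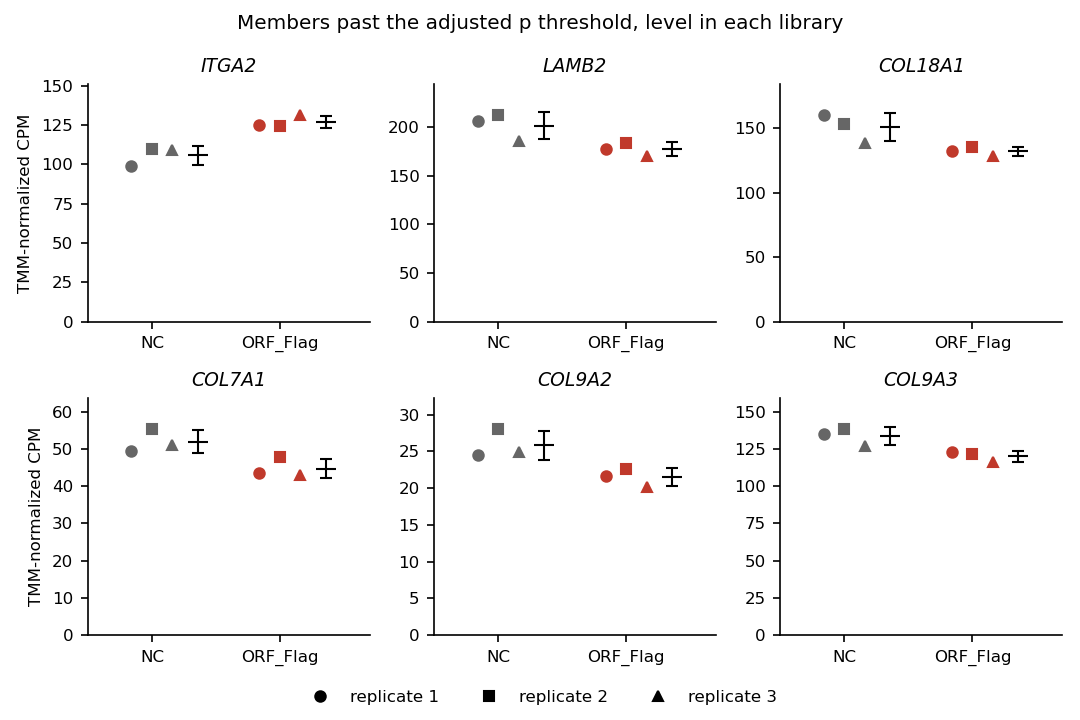
TMM-normalized CPM of the 6 called members in each library (symbols mark the replicate number), with the mean and SD of each group (black, n = 3). ITGA2 lies higher in all 3 ORF_Flag libraries, and the other 5 genes lie lower in all 3, with the NC and ORF_Flag points close together in each case.

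The 5 called members that fell have transcripts of high GC content, a feature that the choice of genes did not use, and ITGA2, which rose, does not. The longest transcripts of the 5 genes that fell have a GC content of 60.3% (LAMB2), 67.2% (COL18A1), 64.8% (COL7A1), 64.8% (COL9A2) and 67.4% (COL9A3), against a median of 48.6% over 12345 tested genes with a transcript sequence. ITGA2 is below that median, at 40.2%. Glycine and proline, the most frequent residues of collagen, have codons rich in G and C, yet not every collagen transcript was. Among the tested collagens COL24A1 had 45.1% and COL5A2 47.9%. The median of the tested members of all families was 57.7%. Over all tested genes the log2 fold change fell with GC content. When the genes were put into 10 bins by GC content, 0.324% were called lower in the bin of lowest GC content and 5.91% in the highest, while 2.75% and 1.21% were called higher. The median log2 fold change was 0.03 in the lowest bin and -0.07 in the highest. Across genes, which are not independent replicates, Spearman's rho between log2 fold change and GC content was -0.24 over the 12345 genes and -0.52 over the 42 tested members. With a mean of at least 10 CPM it was -0.30 over 8677 genes and -0.68 over the 22 members. The 9th and 10th bins held 21 tested members, of which 5 (23.8%) were called lower, against 128 of 2469 genes (5.18%). All 5 members that fell lie in these bins and are counted among the 128 genes, so the shares are not independent. They were not matched on read level, and the comparison does not show a fall beyond the GC trend.

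When the dependence of each library on GC content and exon length was taken out before the fit, an alternative chosen after seeing the data, 2 of the 5 members that fell were still called by edgeR's quasi-likelihood test. In this fit 5 of the 42 tested members were called in either direction, against 807 of 12345 genes (6.54%). On the counts as they are, 4.45% of all genes tested were called. LAMB2 had a log2 fold change of -0.13 (adjusted p = 0.0166 in this edgeR fit, 2.3e-05 to 0.116 over its 14 alternatives). COL18A1 was at -0.11 (adjusted p = 0.0281, 3.1e-05 to 0.104 over its alternatives, edgeR). The other 3 no longer passed edgeR's test. COL7A1 was at -0.17 (adjusted p = 0.0695, 0.0012 to 0.146 over its alternatives, edgeR). COL9A2 was at -0.21 (adjusted p = 0.0727, 0.0038 to 0.168, edgeR) and COL9A3 at -0.07 (adjusted p = 0.270, 0.0015 to 0.270, edgeR). ITGA2 remained called at 0.23 (adjusted p = 4.6e-05, edgeR), and ITGB4 at 0.14 (adjusted p = 0.0451) and LAMB3 at 0.50 (adjusted p = 0.0396) passed the test in this fit only. The count-weighted mean GC content of the libraries was 48.2%, 48.0% and 47.9% in NC and 48.0%, 47.9% and 47.9% in ORF_Flag, with overlapping groups. What part of the GC trend comes from the cells and what part from library preparation was not tested.

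**Figure D4:**
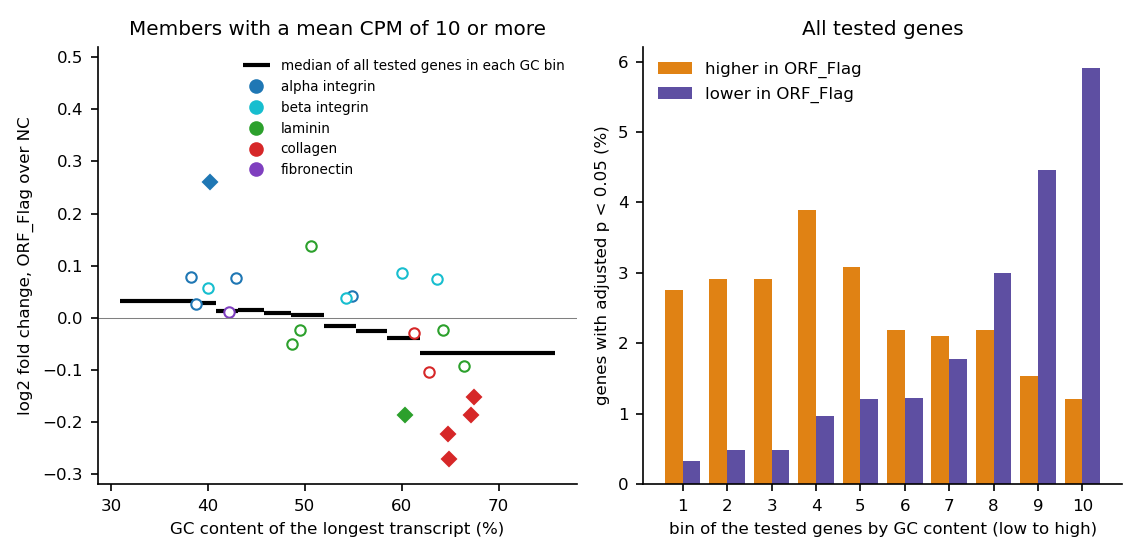
Left, log2 fold change of ORF_Flag over NC against the GC content of the longest transcript (%) for the 22 members with a mean of at least 10 CPM (coloured by family; diamonds for an adjusted p below 0.05, open circles for the rest), with the median of all tested genes in each of 10 GC bins as black lines. Right, percentage of tested genes called higher and lower in each bin; the share called lower climbs to 5.91% in the bin of highest GC content.

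Promoters of called members are shown because 5 of the 6 fell together while ITGA2 rose. In RefSeq's promoter table (GRCh38.p14, 250 bases before to 50 after the start of the gene), 59 of the 83 members were matched, with 29 of the 42 tested and 5 of the 6 called; COL9A3 was not matched. Both strands were searched for the GC box GGGCGG, which zinc finger factors of the SP and KLF families bind, the AP-1 letters TGAGTCA or TGACTCA, the TEAD letters GGAATG and the TATA box TATAAA. For members and tested genes the first listed window was used, and whether HepG2 starts transcription there was not tested. The sequences below are promoter windows of the gene that rose and of the 2 that fell with the smallest p. They are read 5′ to 3′ on the strand of the gene, with capitals for a GC box or its reverse complement CCGCCC. They lie at chr5:52989102-52989401 (plus strand, ITGA2), chr3:49133001-49133300 (minus strand, LAMB2) and chr21:45404915-45405214 (plus strand, COL18A1).
ITGA2: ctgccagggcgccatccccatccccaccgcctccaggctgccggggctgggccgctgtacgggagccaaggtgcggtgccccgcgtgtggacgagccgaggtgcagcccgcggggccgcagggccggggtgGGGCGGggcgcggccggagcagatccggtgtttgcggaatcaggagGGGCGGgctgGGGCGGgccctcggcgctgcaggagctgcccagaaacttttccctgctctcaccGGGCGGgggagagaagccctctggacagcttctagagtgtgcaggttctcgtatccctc
LAMB2: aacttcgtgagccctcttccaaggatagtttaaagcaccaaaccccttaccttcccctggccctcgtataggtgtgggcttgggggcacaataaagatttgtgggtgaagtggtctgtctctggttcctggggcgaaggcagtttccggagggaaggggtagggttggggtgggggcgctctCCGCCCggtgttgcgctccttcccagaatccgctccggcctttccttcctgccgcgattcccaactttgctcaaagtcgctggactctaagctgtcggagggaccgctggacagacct
COL18A1: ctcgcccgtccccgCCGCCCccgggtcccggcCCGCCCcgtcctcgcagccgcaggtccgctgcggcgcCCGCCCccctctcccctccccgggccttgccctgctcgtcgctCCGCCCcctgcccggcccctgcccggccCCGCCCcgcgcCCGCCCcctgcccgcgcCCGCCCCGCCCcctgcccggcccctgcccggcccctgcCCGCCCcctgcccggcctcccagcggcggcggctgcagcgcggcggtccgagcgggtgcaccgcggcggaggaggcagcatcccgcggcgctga

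The window of ITGA2 held 4 GC boxes at a GC content of 72.7%, that of LAMB2 held 1 at 58.7%, and that of COL18A1 held 9 at 86.7%. COL7A1 and COL9A2 each held 3, and COL7A1 also held the TATA letters on the reverse strand. None of the 5 windows held the AP-1 or the TEAD letters. A GC box was found in 21 of the 29 tested members (72.4%), in 69.7% of the promoters of 10024 tested genes and in 45.0% of all 35116 promoters in the table, whose median GC contents were 67.7%, 65.0% and 58.7%. The AP-1 letters were in 2 of the 29 members, in 3.01% of tested genes and in 4.95% of all promoters, the TEAD letters in 4, 10.9% and 14.0%, and the TATA box in 3, 5.67% and 11.5%. The transcript of ITGA2 is low in GC although its promoter is not, so promoter and transcript composition do not order these genes in the same way. A match describes letters in the window and does not show that a factor binds there.

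Among the other receptor chains, ITGA6 was at 179.1, 186.9 and 191.9 CPM in NC and 191.2, 201.4 and 196.5 CPM in ORF_Flag. NC replicate 3 lay within the range of ORF_Flag, and the log2 fold change of 0.08 (SE 0.04) had an adjusted p of 0.253 in edgeR's quasi-likelihood test. ITGAV was at 187.3 ± 10.3 CPM in NC and 198.1 ± 7.74 CPM in ORF_Flag (SD, n = 3), with overlapping groups and a log2 fold change of 0.08. ITGB1 was at 742.9, 777.4 and 816.3 CPM in NC and 799.3, 824.5 and 806.4 CPM in ORF_Flag. The NC libraries of ITGB1 spread more widely than the difference between the groups, which was 0.06 on the log2 scale (SE 0.03). ITGB5 differed by 0.04 and ITGB4, the partner of ITGA6 in hemidesmosomes, by 0.07, both with overlapping groups. Leaving out 1 library at a time put the log2 fold change of ITGA6 between 0.05 and 0.10, of ITGAV between 0.04 (without NC replicate 1) and 0.12 (without NC replicate 2), of ITGB1 between 0.02 (without NC replicate 1) and 0.09 (without NC replicate 3), and of ITGB5 and ITGB4 between 0.02 and 0.05 and between 0.04 and 0.10. ITGAE, the chain that binds E-cadherin on other cells, differed by 0.04 (SE 0.07; 0.002 to 0.07 without 1 library), and ITGA9, a tenascin receptor chain with 22 to 49 counts per library, had the largest positive log2 fold change at 0.52 (SE 0.25, adjusted p = 0.267, edgeR's quasi-likelihood test). ITGB2, the beta chain of leukocyte integrins, was at 22.4 ± 0.67 CPM in NC and 23.7 ± 1.28 CPM in ORF_Flag (SD, n = 3).

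FN1, the main ligand by level, was at 13087, 14216 and 13505 CPM in NC and 13789, 14062 and 13249 CPM in ORF_Flag. The libraries of the groups interleave, and the log2 fold change of 0.01 (SE 0.04) had an adjusted p of 0.920 in edgeR's quasi-likelihood test. Its sign turned in some alternative fits.

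Of the 9 tested laminins, LAMA3 and LAMB3 were those with a positive log2 fold change. LAMB3 was at 2.97, 3.08 and 2.81 CPM in NC and 3.84, 4.19 and 4.15 CPM in ORF_Flag, with 60 to 112 counts per library. All 3 ORF_Flag libraries were above all 3 controls, yet the log2 fold change of 0.46 (SE 0.15) missed the threshold (adjusted p = 0.0838, edgeR's quasi-likelihood test). LAMA3 was at 44.1, 44.5 and 44.0 CPM in NC and 48.0, 48.9 and 48.9 CPM in ORF_Flag, a tight pair of groups without overlap. Its log2 fold change was 0.14 (SE 0.05, adjusted p = 0.105, edgeR's quasi-likelihood test). LAMC1 was at 447.9 ± 6.56 CPM in NC and 432.5 ± 3.95 CPM in ORF_Flag (SD, n = 3), also without overlap, and its log2 fold change was -0.05. LAMA5 was at 293.4, 277.5 and 243.4 CPM in NC and 256.4, 249.95 and 255.8 CPM in ORF_Flag, with NC replicate 3 below all of ORF_Flag. Its log2 fold change was -0.09 with all libraries and -0.17 without NC replicate 3 (adjusted p = 0.282 and 0.00157 in edgeR's quasi-likelihood test, 0.0016 to 0.742 over its alternatives). It was -0.03 without NC replicate 1 and -0.03 with the GC and length trends removed. LAMA1, the alpha chain of early embryonic basement membranes, had 8, 19 and 12 counts in NC and 5, 2 and 10 in ORF_Flag, and its log2 fold change of -1.11 had an SE of 0.49 and was -0.74 without NC replicate 2.

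Of the remaining collagens, COL27A1, a fibrillar collagen of cartilage, was the highest per length after COL9A3, at 253.2, 278.5 and 256.8 CPM in NC and 256.3, 265.3 and 251.1 CPM in ORF_Flag. Its groups overlapped, with a log2 fold change of -0.03 (SE 0.04). COL16A1, which associates with other fibrils, was at 88.0, 88.6 and 79.7 CPM in NC and 81.6, 78.4 and 77.9 CPM in ORF_Flag. NC replicate 3 fell within the range of ORF_Flag, and the log2 fold change of -0.10 (SE 0.04) had an adjusted p of 0.209 in edgeR's quasi-likelihood test and of 0.0209 without NC replicate 3 (0.0209 to 0.526 over its alternatives). The value was -0.15 without NC replicate 3 and -0.045 with the GC and length trends removed. COL2A1, the main cartilage collagen, had 3 to 12 counts per library and the lowest collagen value at -0.41 (SE 0.53). It lay between -0.70 (without NC replicate 1) and -0.14 (without NC replicate 2) in the 3 fits without 1 library in which it passed the filter, and was -0.19 with limma-trend.

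Summed over families, the alpha integrins took 497.7, 541.3 and 535.1 CPM in NC and 553.7, 580.3 and 568.8 CPM in ORF_Flag, without overlap. The collagens took 722.5, 755.7 and 691.9 CPM in NC and 672.6, 685.7 and 650.2 CPM in ORF_Flag, also without overlap. The laminins summed to 1565, 1601 and 1515 CPM in NC and 1496, 1510.2 and 1491 CPM in ORF_Flag, with no overlap but a narrow gap. For the beta integrins, at 996.4 ± 33.1 CPM in NC and 1035.3 ± 12.9 CPM in ORF_Flag (SD, n = 3), the groups overlapped. These sums are led by their most abundant chains and were not tested. Those of the alpha integrins, laminins and collagens include the called members ITGA2, LAMB2, COL18A1, COL7A1, COL9A2 and COL9A3. The separation of their groups is therefore not independent of those calls. Since FN1 dominates, all members together took between 1.70% and 1.82% of the counts of a library, with overlapping groups.

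The genes around these receptors and matrix proteins were counted by lists. Of 42 focal adhesion genes, which link integrins to actin, 37 were tested, 1 was higher (2.70%) and 3 were lower (8.11%) in ORF_Flag by the same edgeR threshold of 0.05 on the adjusted p, against 2.47% and 1.98% of all genes tested, with a median log2 fold change of 0.02. TNS4, an adaptor that binds the tail of beta integrins, rose from 48.9 ± 3.58 to 65.3 ± 1.47 CPM (SD, n = 3; log2 fold change 0.42). The structural linkers TLN1 (-0.13), VCL (-0.14) and FLNA (-0.13) were the 3 that fell. Their adjusted p-values were 0.0312, 0.0301 and 0.0231 in edgeR's quasi-likelihood test, and their transcripts have a GC content of 57.7%, 45.1% and 62.2%. Called genes of these lists that are not members were not followed through the alternative fits. TLN1, the talin that switches integrins on, was at 368.8, 362.1 and 341.2 CPM in NC and 320.3, 332.4 and 327.1 CPM in ORF_Flag, so its highest ORF_Flag library lay below its lowest control.

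Of 45 other matrix proteins 28 were tested, and 4 were higher (14.3%, against 2.47% of all genes) and 1 was lower (3.57%, against 1.98%; edgeR, same threshold; median log2 fold change 0.07). The matricellular proteins CCN1 and CCN2, which bind integrins, had the largest rises among the called genes of these lists. CCN1 rose from 19.2 ± 2.12 to 36.2 ± 1.29 CPM and CCN2 from 63.8 ± 4.57 to 93.5 ± 1.43 CPM (SD, n = 3; log2 fold changes 0.91 and 0.55). SPP1, which encodes the integrin ligand osteopontin, rose by 0.24 and the matrilin MATN3 by 0.28 on the log2 scale. AGRN, a basement membrane proteoglycan whose transcript has a GC content of 67.5%, fell by 0.21.

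Of 36 collagen processing genes 24 were tested, with 2 higher (8.33%, against 2.47% of all genes) and 1 lower (4.17%, against 1.98%; median log2 fold change 0.01). COLGALT2, a collagen galactosyltransferase, was at 0.17 and the lysyl oxidase LOXL4 at 0.20, whereas the procollagen chaperone FKBP10 was at -0.13 on the log2 scale. Of 38 matrix proteases and their inhibitors 25 were tested, and 2 were higher (8.0%, against 2.47% of all genes; median 0.03). Among these the membrane protease ADAM9 rose from 435.9 ± 18.5 to 473.9 ± 4.58 CPM (SD, n = 3; log2 fold change 0.12). Of 23 other matrix receptors 20 were tested and 1 fell (5.0%, against 1.98% of all genes), with a list median of -0.01. This was BCAM, a receptor for laminin alpha5 (-0.21, adjusted p = 0.0478, edgeR's quasi-likelihood test). The transcript of BCAM has a GC content of 64.1% and that of FKBP10 59.2%.

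**Figure D5:**
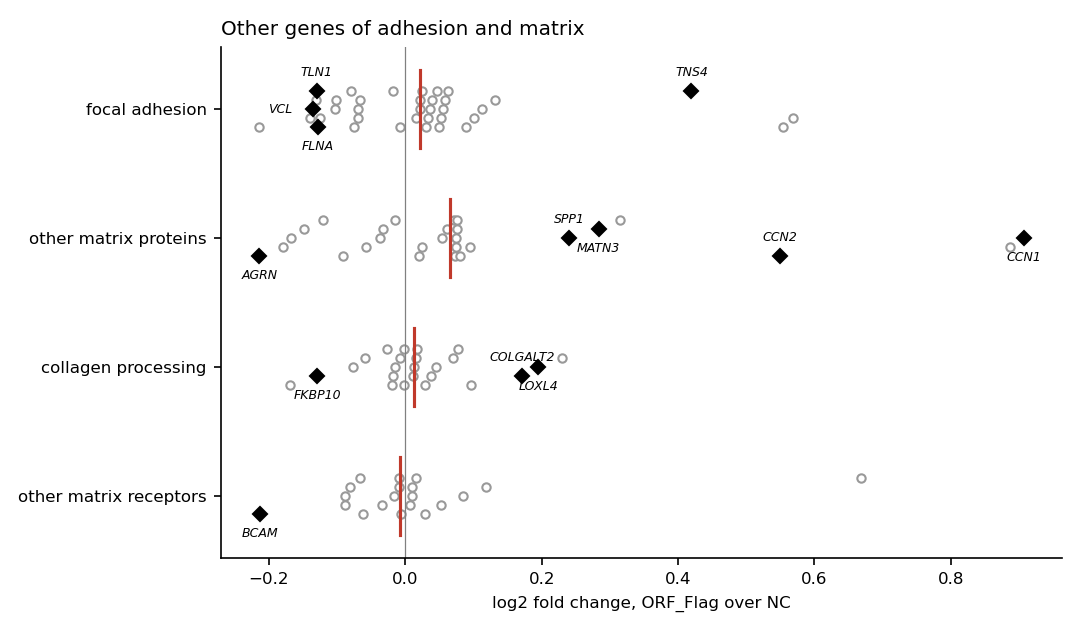
Log2 fold change of ORF_Flag over NC for each tested gene of 4 of the lists (open points; the proteases are not drawn), with genes at an adjusted p below 0.05 as named black diamonds and the list median as a red line. CCN1 at 0.91 and CCN2 at 0.55 lie farthest right among the called genes, and the medians lie between -0.01 and 0.07.

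Markers of cell types were counted in the same way. Of 11 hepatocyte and HepG2 markers all 11 were tested, led by APOB at 7698 CPM, 1 of them (9.09%, against 2.47% of all genes), FGB, rose (0.14 on the log2 scale), and their sum was 26642, 27285 and 27755 CPM in NC and 27788, 27374 and 27391 CPM in ORF_Flag. Of 11 fibroblast or stellate cell markers 2 were tested, and DCN and POSTN were at 0 in every library. The sums were 71.3, 71.2 and 63.7 CPM in NC and 72.0, 72.4 and 71.9 CPM in ORF_Flag, nearly all ACTA2, at 69.6 CPM. ACTA2 was higher in every ORF_Flag library than in every NC library, with a log2 fold change of 0.08, and did not pass the test. The other tested marker of this list had a log2 fold change of -0.41 and did not pass either. Of 6 endothelial markers 1 was tested, PECAM1 at 5.03 CPM, with ERG, KDR and TEK at 0, and the sums were 4.75, 4.16 and 5.01 CPM in NC and 6.56, 5.51 and 6.26 CPM in ORF_Flag. Of 9 leukocyte markers 6 were tested, the members ITGB2 and ITGAL included, and 1 rose (16.7%, against 2.47% of all genes). PTPRC, a general leukocyte marker, and the T cell marker CD3E were at 0. The leukocyte sum of 1329, 1473 and 1468 CPM in NC and 1563, 1664 and 1562 CPM in ORF_Flag was almost all LYZ, which rose by 0.17 on the log2 scale (adjusted p = 0.0112, edgeR's quasi-likelihood test). Of 6 bile duct or progenitor markers 5 were tested and 2 (40%, against 2.47% of all genes) rose, SPP1 and KRT19 (0.24 and 0.21), with sums of 2156, 2231 and 2262 CPM in NC and 2479, 2558 and 2473 CPM in ORF_Flag. The part of these shifts in the results on integrins and collagens was not tested.

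Some members share reads or exons with other genes. Over 31-base stretches of the longest transcript, 56.4% of ITGB3, 19.6% of ITGB6 and 15.9% of ITGB1 also occur in transcripts of another annotated gene, so their counts depend on how the authors' counting treated shared reads. The exons of 34 members overlap exons of another annotated gene, and without a stated strand setting reads of such partners cannot be told apart. Partners on the same strand, such as PELO for ITGA1, would not be told apart by a strand setting either. The exons of COL9A3 overlap TCFL5, whose log2 fold change was -0.05, and those of COL18A1 overlap SLC19A1, at -0.11. Neither partner passed the test, and both had fewer counts than the collagen gene, at 27.2 and 25.5 CPM in NC (not divided by length). The exons of LAMA5 overlap ADRM1 (162.4 CPM in NC, log2 fold change -0.06). Those of LAMB1 overlap DLD (145.7 CPM in NC, -0.01), and ADRM1 and DLD did not pass the test.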

How the data were processed

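RNA of HepG2 cells was extracted with Trizol and made into libraries with the VAHTS universal V10 kit, 3 for NC and 3 for ORF_Flag. The table that the authors deposited holds unnormalized read counts for 20422 Ensembl genes. The submitters' processing notes name cutadapt 1.11, HISAT2 2.1.0, featureCounts 1.6.0, edgeR and GRCh38; the annotation release and the strand setting are not given in the sources used here. Groups and replicate numbers were taken from the sample labels, which the columns match. Symbols were matched for 20421 identifiers.

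The counts were analysed in R 4.3.3 with edgeR 4.0.16: filterByExpr's default filter (12386 genes), TMM, glmQLFit, glmQLFTest on the group, and Benjamini-Hochberg adjustment at 0.05. The study's methods name limma, which was run as an alternative (limma-trend, limma 3.58.1), as was DESeq2 1.42.0. The other alternatives were no TMM, DESeq2 size factors in edgeR, no filter, at least 10 counts in every library, a block for the replicate number, 1 library left out at a time, and a fold change above 1.2 with an unadjusted p below 0.05. Added after seeing the data were a fit after the dependence of each library on GC content and exon length had been taken out (splines with 5 degrees of freedom) and the longest transcript as length. The standard error was derived from the F statistic. Exon lengths, positions, GC content and shared stretches came from GENCODE release 29 on GRCh38. Chi-square tests over genes with at least 20 counts in a pair of libraries gave 2.39 to 5.23 per degree of freedom, above sampling noise in each pair of replicates. The single-gene tests were tested on simulated data. Figures were drawn with matplotlib 3.10.9.

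Members named were those past the adjusted threshold, the 4 highest per length of each family with FN1, the 5 smallest p-values that missed the threshold and the 2 largest and 2 smallest fold changes, with up to 4 called genes of each list. Others, such as COL1A1 or the overlapping partners, were chosen after their values were seen. Results of a few genes were left out of the text. The members and lists were chosen with earlier results of these data known.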

Additional observations from a re-analysis of the deposited data

How the results depend on the processing

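Of the 24 named members, 22 kept their direction in every alternative fit that could test them, and 301 of 328 values kept both the direction and the side of the threshold. ITGA2 was called in all 14 at an adjusted p below 0.05. The count of members that rose was 1 in the main analysis and in each fit without 1 library (1 to 1). It was 3 with the GC and length trends removed and 2 at a fold change above 1.2 with an unadjusted p below 0.05, where ITGA2 (1.197) was not counted. The count that fell was 5 and lay between 0 and 7 without 1 library, and it was 2 with the trends removed and 2 at the fold change threshold. The count over all genes was 551 and lay between 199 and 1058 without 1 library. It was 807 with the trends removed and 562 at the fold change threshold. The cause of these shifts was not tested. The log2 fold change of COL27A1 was 0.011 with the trends removed and lay between -0.056 and 0.013 without 1 library (positive without NC replicate 2). That of FN1 was -0.035 with the trends removed and lay between -0.017 and 0.042 without 1 library (negative without NC replicate 1 or ORF_Flag replicate 2). Neither was called in any fit, and the cause of these turns was not tested. Detection was 42 members under the default filter, 49 with at least 1 count in every library, 37 with at least 10 and 34 at a mean of at least 1 CPM. Samples of NC and ORF_Flag share only replicate numbers: the deviations of same-numbered samples correlated at 0.07, 0.03 and 0.04. ORF_Flag replicate 2 correlated about as well with NC replicate 3 (0.0304) as with NC replicate 2 (0.0266). Values this small do not settle whether same-numbered samples were paired. With the replicate block 1 member rose, 5 fell and 731 genes differed in all, 550 of them shared with the 551. Members with few counts, such as LAMA1, COL2A1 and ITGA9, have standard errors of 0.25 to 0.53 on the log2 scale, so differences of that size were not detectable at this depth.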
